A study of Mus musculus with 6 samples.

Results

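Tetraspanins are small membrane proteins that cross the membrane several times and organise integrins, immunoglobulin-domain proteins and growth factor precursors into shared membrane domains. CD9 and CD81 are known for their part in the fusion of egg and sperm, CD63 for its place in late endosomes, lysosomes and secreted vesicles, and TSPAN8 and CD9 as surface proteins used to enrich spermatogonial stem cells. The genes described here are Tspan8, Cd9, Cd81, Cd82, Cd63, Cd151, Tspan3, Tspan6 and Tspan13. They were chosen by symbol, each matched 1 row of the deposited expression table, and they are 9 of 31918 rows.

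The samples are testis cells of mice at postnatal day 8 with the genotype Id4-eGfp (LT11). Its green fluorescent protein reports on Id4, which encodes an inhibitor of helix-loop-helix factors. Spermatogonia with bright fluorescence and a high Id4 level (Bright) were compared with spermatogonia with dim fluorescence and a low Id4 level (Dim), in 3 libraries each. All 6 libraries share the transgene, the age and the tissue. The labels give neither the fluorescence gates nor the number of animals behind a library, so p-values cover the spread among libraries, which may be technical. Values are FPKM, fragments scaled to transcript length and library size, so levels of different genes are compared per length.

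Id4 itself was at 28.5, 42.7 and 39.7 FPKM in Bright 1, 2 and 3, against 3.75, 4.71 and 5.39 FPKM in Dim 1, 2 and 3, which goes with the labels. The 10 germ cell markers listed, Ddx4 and Dazl among them, summed to 1448 to 1645 FPKM in Bright and 1484 to 1666 FPKM in Dim. Bright 3 stood apart. Its 6 Leydig markers summed to 1747 FPKM, against 2.13 and 2.53 FPKM in Bright 1 and 2 and 1.65 to 2.56 FPKM in Dim, and the sums for Sertoli, myoid, stromal, endothelial, macrophage and erythroid markers were also highest in Bright 3. Endothelial markers summed to 8.01, 6.47 and 18.8 FPKM in Bright 1, 2 and 3, against 2.48 to 2.87 FPKM in Dim. Stromal markers summed to 36.2, 32.7 and 202 FPKM in Bright 1, 2 and 3, against 24.7 to 27.2 FPKM in Dim. In Bright 1 and 2 the stromal excess lay in Pdgfra (6.13 and 6.46 FPKM, against 1.19 to 1.53 FPKM in Dim) and Col1a1. Col1a1 was at 25.7 and 22.8 FPKM there, against 18.5 to 19.7 FPKM in Dim. Dcn, Col1a2, Col3a1 and Lum lay within or below their Dim ranges in Bright 1 and 2. In Bright 3, Col1a1 was below every Dim library at 17.7 FPKM, and the other stromal markers were above. Macrophage markers summed to 0.953, 1.78 and 135 FPKM in Bright 1, 2 and 3, against 44.3, 49.8 and 2.65 FPKM in Dim 1, 2 and 3, with Csf1r at 0 in Bright 1 and C1qa at 0 in Bright 2. Leydig markers were near 0 outside Bright 3, with Lhcgr at 0 in Bright 1 and in all Dim libraries. Values without Bright 3 are given beside the results whose call or direction it changed.

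The sequences upstream of Tspan8 and Cd9 are shown because these genes rose together in Bright and because ID proteins act by keeping helix-loop-helix factors off E-boxes, the sites these factors bind. They come from RefSeq on GRCm38.p6, are read 5′ to 3′ on the strand of the gene, and leave out any base inside the deposited gene span or an annotated exon of the gene. Capitals mark E-boxes (CANNTG, which reads the same on both strands). The Tspan8 sequence is chr10:115817034-115817270 on the plus strand, and the Cd9 sequence is chr6:125494792-125495010 on the minus strand.
Tspan8: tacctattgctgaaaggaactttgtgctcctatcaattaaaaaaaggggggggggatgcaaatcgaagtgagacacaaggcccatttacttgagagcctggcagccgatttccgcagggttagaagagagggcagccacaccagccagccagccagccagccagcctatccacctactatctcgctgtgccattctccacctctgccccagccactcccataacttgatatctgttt
Cd9: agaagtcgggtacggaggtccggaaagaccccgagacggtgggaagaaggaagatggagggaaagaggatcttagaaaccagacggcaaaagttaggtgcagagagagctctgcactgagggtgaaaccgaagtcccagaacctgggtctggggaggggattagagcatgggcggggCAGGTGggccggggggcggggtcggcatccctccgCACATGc
In the full window of 250 bases before the start of the gene, Cd9 held 3 E-boxes and Tspan8 held 0, while 66.0% of 27025 mouse promoters of that length held at least 1. The Cd9 window also held 2 GC boxes (GGGCGG, either strand), a motif found in 32.9% of promoters, and Tspan8 held 0. Neither window held TATAAA, found in 13.0% of promoters on either strand, or the ETS core CGGAAG, found in 13.8%. The G and C content was 61.6% for Cd9 and 52.4% for Tspan8, against a median of 52.0% over all promoters. Of the other members, Cd81 and Cd151 held 1 E-box each, Tspan3 held 2, and Cd82, Cd63, Tspan6 and Tspan13 held 0. These windows start from the RefSeq start of each gene. The whole Cd63 window, and parts of the Cd82, Cd9, Tspan13, Tspan8 and Cd81 windows, lie within the deposited gene span or an annotated exon. Of 250 bases, 60 were kept for Cd82, 219 for Cd9 and 237 for Tspan8. The printed Cd9 sequence holds 2 of the 3 E-boxes of its window. The printed Tspan8 sequence lies outside the annotated exons but inside the longer GENCODE M21 span of the gene. A match describes letters in a window and is not a bound site. Any effect of ID4 on these genes was not tested.

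Tspan8 had the largest excess in Bright among the 9 genes. It measured 9.01, 12.1 and 14.96 FPKM in Bright 1, 2 and 3, against 1.15, 1.62 and 1.90 FPKM in Dim 1, 2 and 3. Every Bright library lay well above every Dim library. The means were 12.0 ± 2.98 FPKM in Bright libraries and 1.56 ± 0.381 FPKM in Dim libraries (SD, n = 3 each), a 7.72-fold ratio of means. The log2 fold change on log2(FPKM + 1) was 2.33 ± 0.21 (SE, limma with Benjamini-Hochberg adjustment, adjusted p = 0.000272), and it was 2.18 without Bright 3 (limma adjusted p = 0.00218). From the size of the smallest FPKM steps, the Dim values stand for about 31.5, 52.5 and 65.1 reads per kilobase of transcript, the fewest of any member. The exact two-sided permutation test over the 6 libraries gave p = 0.1 for Tspan8 and 0.1 for Cd9, the smallest that 20 arrangements allow.

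Cd82, known as a metastasis suppressor that associates with integrins, also rose in Bright. It measured 15.2, 27.9 and 29.3 FPKM in Bright 1, 2 and 3, against 6.26, 8.17 and 6.56 FPKM in Dim 1, 2 and 3. Bright 1 was the lowest of the Bright libraries, and still lay above every Dim library. The ratio of means was 3.45 and the log2 fold change 1.60 ± 0.24 (SE, limma adjusted p = 0.00267), or 1.44 without Bright 3 (limma adjusted p = 0.014).

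Cd9 was among the most abundant tetraspanins in both groups and rose by less. It measured 69.0, 97.0 and 80.1 FPKM in Bright 1, 2 and 3, against 40.7, 53.1 and 54.2 FPKM in Dim 1, 2 and 3. The groups did not overlap, with Bright 1 the lowest Bright library and Dim 3 the highest Dim library. The means were 82.0 ± 14.1 FPKM in the Bright libraries and 49.3 ± 7.51 FPKM in the Dim libraries, a 1.66-fold ratio, with a log2 fold change of 0.72 ± 0.17 (SE, limma adjusted p = 0.0201). The call was lost without Bright 3 (log2 fold change 0.73, limma adjusted p = 0.0514) and without Dim 1 (0.59 and 0.0545), and the log2 fold change lay between 0.59 and 0.84 when any 1 library was omitted. The Tspan8 level was 0.131, 0.125 and 0.187 times that of Cd9 in Bright 1, 2 and 3, and 0.0283, 0.0305 and 0.0351 times in Dim 1, 2 and 3.

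Cd63 went the other way and had the largest change in that direction. It measured 18.2, 24.1 and 35.3 FPKM in Bright 1, 2 and 3, against 81.2, 115 and 77.8 FPKM in Dim 1, 2 and 3. The highest Bright library, Bright 3, lay far below the lowest Dim library. The means were 25.9 ± 8.71 FPKM in Bright libraries and 91.5 ± 20.8 FPKM in Dim libraries, so that Dim was 3.54-fold higher, with a log2 fold change of -1.81 ± 0.25 (SE, limma adjusted p = 0.00174). Without Bright 3 the log2 fold change was -2.05 (limma adjusted p = 0.00319). Cd63 lay below Cd9 in every Bright library, at 0.264, 0.248 and 0.441 times its FPKM in Bright 1, 2 and 3, and above it in every Dim library, at 2.00, 2.18 and 1.44 times in Dim 1, 2 and 3.

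Tspan13 was lower in Bright as well, at a low level and by a small margin. It measured 4.93, 6.05 and 5.71 FPKM in Bright 1, 2 and 3, against 7.15, 9.35 and 8.37 FPKM in Dim 1, 2 and 3, with no overlap. The log2 fold change was -0.50 ± 0.15 (SE, limma adjusted p = 0.0488). This call stood at the threshold and was kept only without Dim 1 (0.0454) when single libraries were omitted. Adjusted p was 0.144 without Bright 1, 0.0685 without Bright 2, 0.0806 without Bright 3, 0.177 without Dim 2 and 0.14 without Dim 3 (limma).

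**Figure D1:**
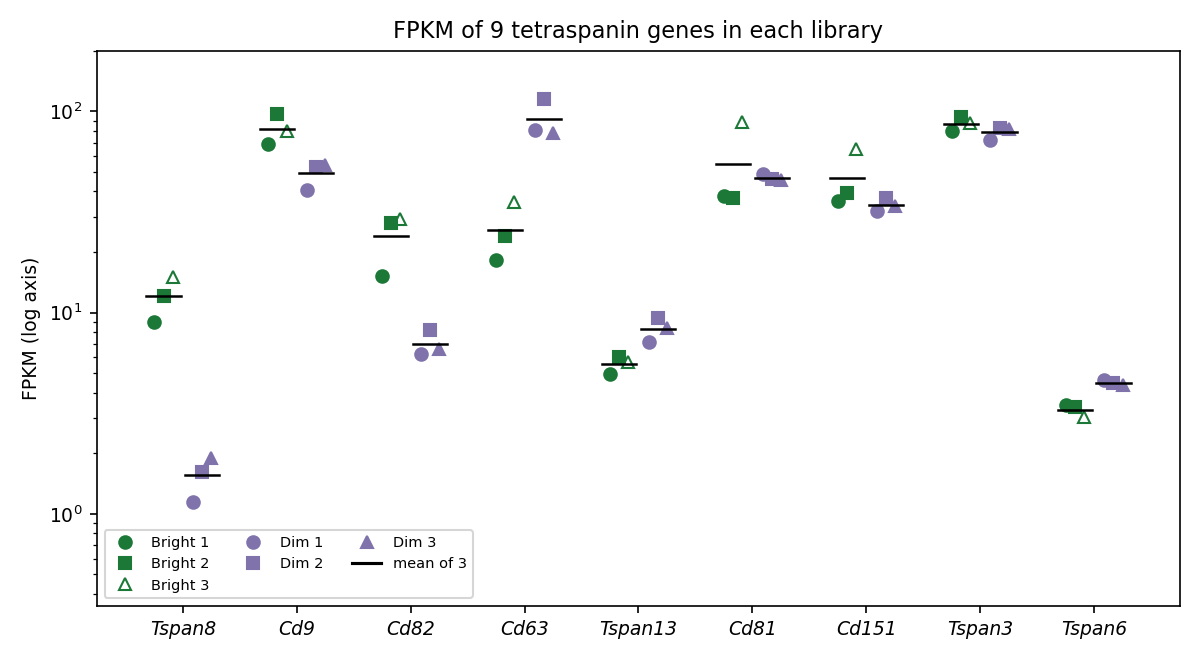
FPKM of the 9 tetraspanin genes (log axis) in the 3 Bright libraries, left and green with Bright 3 as an open triangle, and the 3 Dim libraries, right and purple; bars are means of 3 libraries. Tspan8, Cd82 and Cd9 are higher in Bright and Cd63 and Tspan13 higher in Dim, while Bright 3 alone sets the Bright mean of Cd81 above that of Dim.

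The 4 other members did not pass the test. Tspan3, an abundant and widely expressed member, measured 80.0, 93.8 and 87.0 FPKM in Bright 1, 2 and 3, against 71.95, 82.8 and 82.1 FPKM in Dim 1, 2 and 3. These values overlapped, and the 95% interval of the log2 difference ran from -0.17 to 0.44 (limma adjusted p = 0.506). Tspan6, an X-linked member, measured 3.48, 3.39 and 3.03 FPKM in Bright 1, 2 and 3, against 4.60, 4.46 and 4.37 FPKM in Dim 1, 2 and 3. Its groups did not overlap, but the difference of -0.35 (95% interval -0.67 to -0.03) missed the threshold after adjustment (limma adjusted p = 0.111).

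Cd81 and Cd151 were the members on which Bright 3 weighed most. Cd81, whose protein associates with CD9 in many cells, measured 38.0, 36.9 and 88.4 FPKM in Bright 1, 2 and 3, against 48.8, 46.2 and 45.6 FPKM in Dim 1, 2 and 3. Bright 1 and 2 lay below all Dim libraries and Bright 3 far above them. The log2 difference was 0.09 (95% interval -0.64 to 0.82, limma adjusted p = 0.858) with all libraries and changed sign to -0.31 (-0.59 to -0.04, limma adjusted p = 0.112) without Bright 3. Cd151, which binds the laminin-binding integrins, measured 35.7, 39.3 and 64.8 FPKM in Bright 1, 2 and 3, against 32.0, 37.3 and 34.0 FPKM in Dim 1, 2 and 3. Its log2 difference was 0.38 (95% interval -0.11 to 0.87, limma adjusted p = 0.248), and 0.12 (-0.19 to 0.43) without Bright 3. Against the mean of Bright 1 and 2, Bright 3 was 2.36-fold higher for Cd81, 1.73-fold for Cd151, 1.67-fold for Cd63, 1.41-fold for Tspan8 and 1.36-fold for Cd82, and 0.881 to 1.04 times it for Cd9, Tspan3, Tspan6 and Tspan13. The part of the other cell types' RNA in these values was not tested, and in sorted cells a lower share of cells with a transcript and less transcript per cell cannot be told apart.

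Of the 9 members, 3 rose and 2 fell in Bright, where 12.0% and 10.5% of the 13416 genes tested did so (22.5% in all). The groups did not overlap in 6 of the 9, 3 higher and 3 lower in Bright, against 20.4% and 20.8% of all genes tested (41.1% in all). Without Bright 3, Tspan8 and Cd82 were called higher and Cd63 lower, against 10.6% and 8.37% of all genes (18.9% in all). The median log2 fold change was 0.14 over the 9 members and -0.03 over all genes tested. In the authors' deposited table of the pooled comparison, Tspan8 (log2 ratio 2.99, q = 0.000921), Cd82 (1.73, q = 0.000921), Cd9 (0.71, q = 0.0128) and Cd63 (-1.82, q = 0.000921) passed a q of 0.05, as did 6.31% (higher) and 3.29% (lower) of the 25644 genes it lists above 0. That set takes in genes below the level required for limma, so its shares are not comparable with those above. Tspan13 did not pass in the authors' deposited table (log2 ratio -0.60, q = 0.336). In their 3 tables of 1 Bright against 1 Dim library with the same number, the log2 ratios of Tspan8 were 3.08, 2.89 and 3.01 and those of Cd63 -2.16, -2.32 and -1.11. The same authors' deposited tables gave log2 ratios of 0.76, 0.82 and 0.54 for Cd9 and 1.12, 1.75 and 2.105 for Cd82. None of the 9 members passed a q of 0.05 in these 3 tables, which hold the same 6 libraries. Tspan8 had q = 0.467, 0.590 and 0.938 there, and Cd63 had q = 0.519, 0.290 and 0.999.

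**Figure D2:**
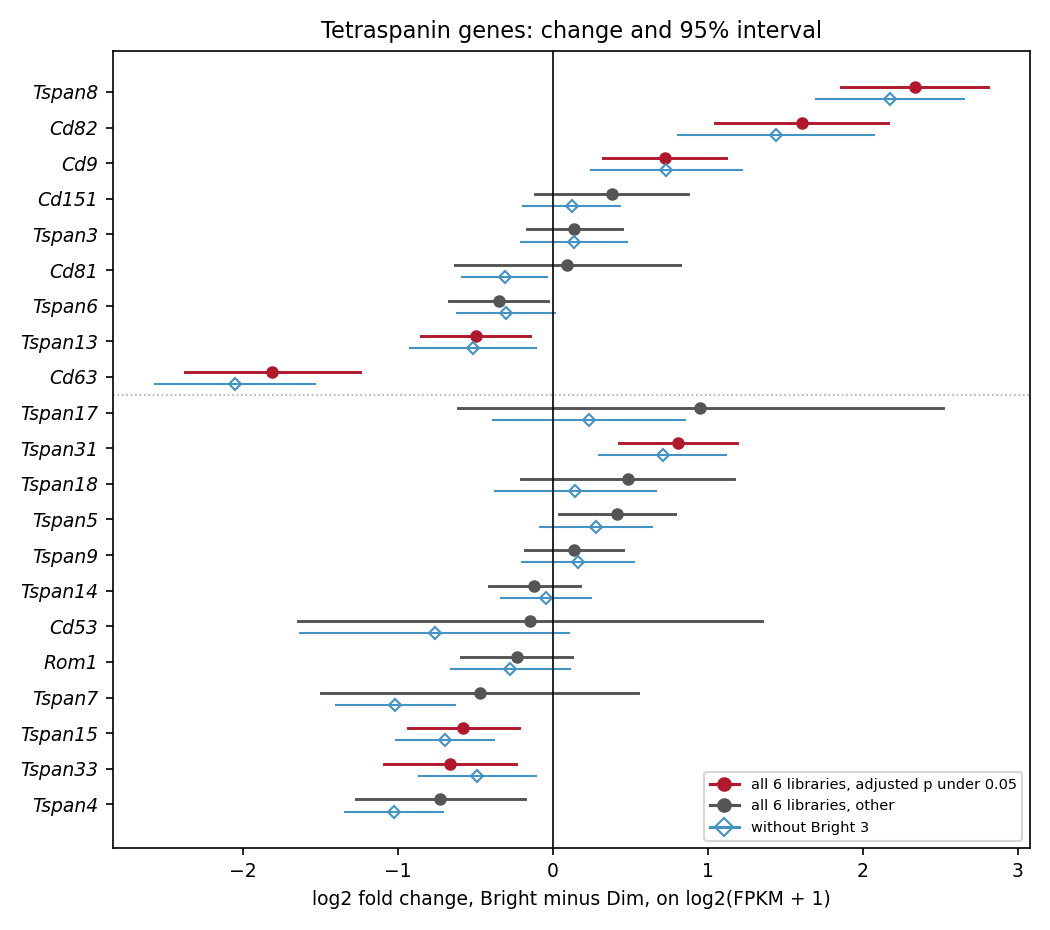
Log2 fold change, Bright minus Dim on log2(FPKM + 1), with 95% limma intervals for the 9 members (above the dotted line) and the 12 other tetraspanins tested (below it); red marks adjusted p under 0.05 and open blue diamonds the fit without Bright 3. Tspan8 and Cd63 lie at the 2 ends, and Tspan17, Cd53, Tspan7 and Cd81 move to the left without Bright 3.

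The order of the transcripts differed between the groups. In Bright, Tspan3 had the highest mean at 86.9 FPKM, followed by Cd9 at 82.0, Cd81 at 54.5, Cd151 at 46.6, Cd63 at 25.9, Cd82 at 24.1, Tspan8 at 12.0, Tspan13 at 5.56 and Tspan6 at 3.30 FPKM. In Dim, Cd63 came first at 91.5 FPKM, followed by Tspan3 at 78.9, Cd9 at 49.3, Cd81 at 46.8, Cd151 at 34.4, Tspan13 at 8.29, Cd82 at 7.0, Tspan6 at 4.47 and Tspan8 at 1.56 FPKM. Neighbours whose libraries overlapped were Tspan3 and Cd9, Cd9 and Cd81, Cd81 and Cd151, and Cd63 and Cd82 in Bright. Without Bright 3, Cd9 and Cd81 did not overlap (means of 83.0 and 37.5 FPKM in Bright 1 and 2), and Cd82 at 21.5 FPKM stood just above Cd63 at 21.1 FPKM. In Dim the overlapping neighbours were Cd63 and Tspan3, Cd9 and Cd81, and Tspan13 and Cd82. Tspan8 stood above 47.5% of the genes tested by its Bright mean and above 10.1% by its Dim mean. Cd63 stood above 67.6% by its Bright mean and 92.1% by its Dim mean, whereas Tspan3 stayed at 92.1% and 90.6%.

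The summed level of the 9 genes overlapped between the groups, as did the shares of it held by Cd81, Tspan3 and Tspan6. The shares of Cd63, Cd9, Tspan8, Cd82, Cd151 and Tspan13 did not overlap. These shares are parts of a common sum and are not independent, so a lower Cd63 share leaves larger shares to the other genes. Cd151 was apart by share although its FPKM values overlapped. The sum was 273, 341 and 409 FPKM in Bright 1, 2 and 3, against 294, 358 and 315 FPKM in Dim 1, 2 and 3. Cd63 held 6.65%, 7.07% and 8.64% of it in Bright 1, 2 and 3, against 27.6%, 32.2% and 24.7% in Dim 1, 2 and 3. Cd9 held 25.2%, 28.5% and 19.6% in the Bright libraries, against 13.8%, 14.8% and 17.2% in Dim. Tspan8 held 3.29%, 3.57% and 3.66% in the Bright libraries, against 0.392%, 0.452% and 0.605% in Dim. Among all listed tetraspanin rows, the 9 genes held 67.6% to 71.7% of the summed FPKM in Bright and 67.0% to 70.7% in Dim.

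**Figure D3:**
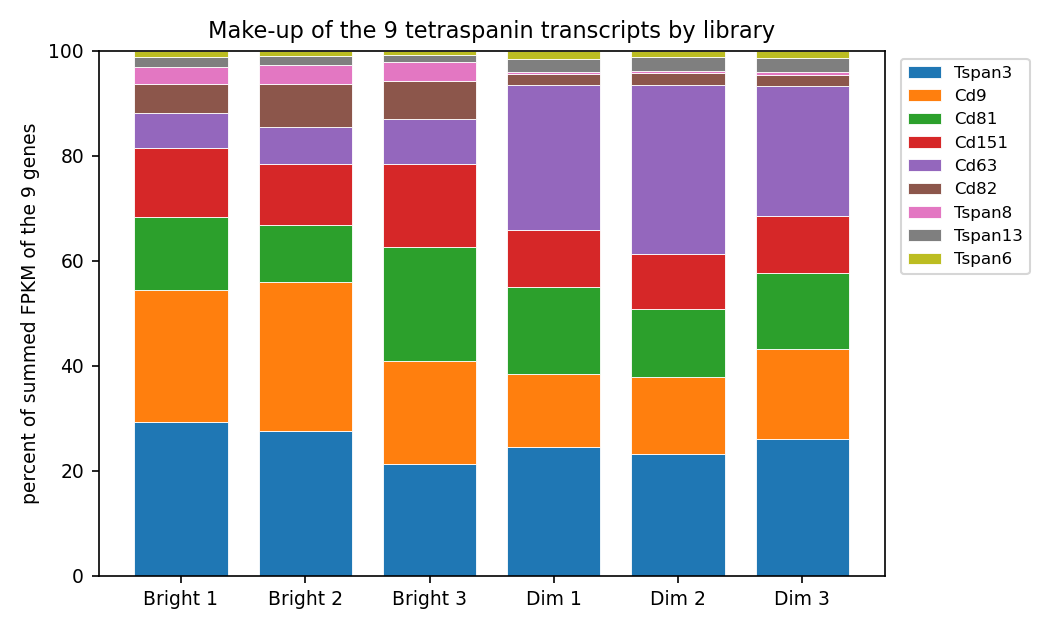
Share of the summed FPKM of the 9 tetraspanin genes held by each gene, in percent, for the 3 Bright libraries (left) and the 3 Dim libraries (right). The Cd63 share is 6.65% to 8.64% in Bright and 24.7% to 32.2% in Dim, and the Cd81 share is widest in Bright 3.

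Of 22 other tetraspanin genes, 12 reached the level to be tested, and 1 rose and 2 fell in Bright, against the 12.0% and 10.5% of all genes. Without Bright 3, 1 rose (Tspan31) and 3 fell (Tspan4, Tspan7 and Tspan15), beside 10.6% and 8.37% of all genes tested. Tspan31 measured 15.8, 21.2 and 22.8 FPKM in Bright 1, 2 and 3, against 9.76, 11.6 and 11.3 FPKM in Dim 1, 2 and 3 (log2 fold change 0.81 ± 0.17 SE, limma adjusted p = 0.0099). Its exons overlap those of Cdk4 on the opposite strand, which measured 287, 342 and 297 FPKM in Bright libraries 1, 2 and 3, and 161, 226 and 242 FPKM in Dim libraries 1, 2 and 3. Strandedness is not given in the sources used here, so reads of the 2 genes cannot be told apart, and Tspan31 did not pass in the authors' deposited table (q = 0.435). Among the members, antisense transcripts overlap exons of Tspan8, Cd9, Cd81 and Cd151; those of Cd9, Cd81 and Cd151 with values in the table reached at most 6.29, 2.19 and 1.03 FPKM in any library, and the one at Tspan8 was not analysed here.

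The TspanC8 genes, whose proteins bind the shedding protease ADAM10 and carry it to the cell surface, gave the 2 falls. Tspan33 measured 13.2, 13.8 and 9.05 FPKM in Bright 1, 2 and 3, against 18.4, 22.7 and 17.4 FPKM in Dim 1, 2 and 3 (log2 fold change -0.66 ± 0.19 SE, limma adjusted p = 0.0352). Tspan15 measured 3.06, 2.97 and 4.13 FPKM in Bright 1, 2 and 3, against 5.45, 5.47 and 5.63 FPKM in Dim 1, 2 and 3 (log2 fold change -0.58 ± 0.16 SE, limma adjusted p = 0.0308). Tspan33 was lost without Bright 1 (limma adjusted p = 0.0508), Bright 3 (0.0787), Dim 2 (0.108) or Dim 3 (0.0667), and Tspan15 was kept only without Bright 3 (0.0154). Without Bright 1, Bright 2, Dim 1, Dim 2 or Dim 3, Tspan15 gave limma adjusted p = 0.0935, 0.0862, 0.066, 0.0883 and 0.102. In the authors' deposited table of the pooled comparison, Tspan33 passed (q = 0.0285) and Tspan15 did not (q = 0.133). Tspan14, the most abundant of them, was at 37.4 ± 3.57 FPKM in Bright libraries and 40.7 ± 2.27 FPKM in Dim libraries (limma adjusted p = 0.546), Tspan5 was at 17.1 ± 3.23 and 12.5 ± 1.15 FPKM (0.11), and Tspan17 is described below. Of the 5 TspanC8 genes tested, 2 fell and 0 rose by limma, beside 10.5% and 12.0% of all genes tested. Another 1 was higher at an unadjusted p under 0.05, a level at which no share of all genes was computed. Adam10 itself measured 24.2 ± 3.54 FPKM in Bright libraries and 27.8 ± 6.49 FPKM in Dim libraries (log2 difference -0.18, 95% interval -0.61 to 0.25).

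Cd53, Tspan17 and Tspan7 were picked after their values were seen. Cd53, a leukocyte tetraspanin, measured 0.0268, 0.0397 and 2.70 FPKM in Bright 1, 2 and 3, against 1.52, 1.06 and 0.0345 FPKM in Dim 1, 2 and 3. It was thus high in Bright 3, Dim 1 and Dim 2, the libraries in which macrophage markers summed to 135, 44.3 and 49.8 FPKM. Tspan17 measured 1.90, 2.48 and 13.1 FPKM in Bright 1, 2 and 3, against 1.14, 1.45 and 2.75 FPKM in Dim 1, 2 and 3, so Bright 3 was far above the other libraries. In the authors' deposited table Tspan17 passed (log2 ratio 1.75, q = 0.0120), while limma on the separate libraries did not call it (adjusted p = 0.344). Tspan7 measured 0.895, 0.919 and 4.91 FPKM in Bright 1, 2 and 3, against 2.65, 3.50 and 2.51 FPKM in Dim 1, 2 and 3, and Tspan4 measured 13.99, 12.3 and 25.3 FPKM in Bright against 27.8, 29.3 and 26.3 FPKM in Dim. Both fell in Bright without Bright 3, with log2 fold changes of -1.02 (limma adjusted p = 0.00879) and -1.03 (0.00511), and did not pass with it (-0.47, 0.481, and -0.73, 0.0618). Tspan4 shares exon sequence with Chid1 on the opposite strand, which was at 18.4 ± 2.01 FPKM in Bright libraries and 22.6 ± 0.881 FPKM in Dim libraries. The part of other cells in these values was not tested.

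Of the integrin chains known to associate with tetraspanins, those called by limma were higher in Bright. Of 8 listed, 7 were tested, and 3 rose and 0 fell by limma, beside 12.0% and 10.5% of all genes. The 3 are the alpha chains of laminin-binding integrins, to which CD151 binds. The 1 gene lower at an unadjusted p under 0.05 was Itgb4, given outside the rule for naming genes. No share of all genes was computed at that level. Itgb4 measured 0.968, 0.890 and 0.776 FPKM in Bright 1, 2 and 3, against 1.63, 1.32 and 1.18 FPKM in Dim 1, 2 and 3. Its log2 difference was -0.34 (95% interval -0.67 to -0.004, limma adjusted p = 0.137). Itga6 measured 83.4, 74.0 and 90.8 FPKM in Bright 1, 2 and 3, against 31.8, 26.5 and 32.9 FPKM in Dim 1, 2 and 3 (limma adjusted p = 0.000513). Endothelial markers, also higher in every Bright library, summed to at most 18.8 FPKM, and their part in the integrin values was not tested. Itga3 was at 8.60 ± 1.08 FPKM in Bright libraries and 4.65 ± 0.156 FPKM in Dim libraries (limma adjusted p = 0.00708). Itga7 was at 5.01 ± 0.746 and 3.13 ± 0.373 FPKM (limma adjusted p = 0.0429), kept only without Bright 3 (0.0383) when single libraries were omitted. Without Bright 1, Bright 2, Dim 1, Dim 2 or Dim 3 the limma adjusted p of Itga7 was 0.0931, 0.124, 0.0968, 0.073 and 0.147. Itga6 (q = 0.000921) and Itga3 (q = 0.0329) passed in the authors' deposited table of the pooled comparison, and Itga7 did not (q = 0.227). The common beta chain of the 3, Itgb1, was at 79.6 ± 4.45 FPKM in Bright libraries and 87.7 ± 8.68 FPKM in Dim libraries (log2 difference -0.14, 95% interval -0.44 to 0.17). Itgav was at 4.59 ± 1.70 and 4.24 ± 1.10 FPKM (limma adjusted p = 0.86).

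Of 11 other membrane partners, 7 were tested, and 2 rose and 0 fell by limma, beside 12.0% and 10.5% of all genes tested. Another 1 was lower at an unadjusted p under 0.05, a level at which no share of all genes was computed. Ptgfrn, an immunoglobulin-domain protein that binds CD9 and CD81, was at 15.2 ± 1.502 FPKM in Bright libraries and 8.05 ± 0.973 FPKM in Dim libraries (log2 fold change 0.84, limma adjusted p = 0.00485). Hbegf, a growth factor whose membrane precursor associates with CD9, was at 5.11 ± 0.425 FPKM in Bright libraries and 2.59 ± 0.135 FPKM in Dim libraries (0.76, limma adjusted p = 0.00672). Both kept their calls whichever single library was omitted. In the authors' deposited table of the pooled comparison, Ptgfrn passed (q = 0.000921) and Hbegf did not (q = 0.0695). Epcam was at 53.1 ± 10.7 FPKM in Bright libraries and 60.4 ± 7.55 FPKM in Dim libraries (limma adjusted p = 0.465). Ifitm3, an interferon-induced membrane protein, was not tested because of its low level and is named outside the rule for naming genes. It was at 0.0839, 0.125 and 25.2 FPKM in Bright 1, 2 and 3, against 0.277, 0.464 and 0.533 FPKM in Dim 1, 2 and 3, and so was high only in Bright 3.

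Of 13 genes of endosomes, lysosomes and secreted vesicles, where CD63 resides, 12 were tested, and 3 rose and 1 fell in Bright, beside 12.0% and 10.5% of all genes tested. Without Bright 3, 2 rose (Sdc4 and Flot2) and 2 fell (Vps4a and Rab27a), beside 10.6% and 8.37%. Rab27a, a GTPase of vesicle secretion named here after its values were seen, measured 0.914, 0.571 and 1.79 FPKM in Bright 1, 2 and 3, against 2.59, 1.75 and 1.96 FPKM in Dim 1, 2 and 3. Its log2 difference was -0.60 (limma adjusted p = 0.0932) with all libraries and -0.83 (limma adjusted p = 0.0223) without Bright 3. Sdc4, a syndecan whose tail binds the adaptor syntenin, measured 266, 258 and 214 FPKM in Bright 1, 2 and 3, against 89.1, 101 and 118 FPKM in Dim 1, 2 and 3 (log2 fold change 1.25, limma adjusted p = 0.00143). The membrane scaffold genes Flot1 and Flot2 averaged 18.3 ± 3.24 and 51.4 ± 4.63 FPKM in the Bright libraries, against 10.2 ± 2.38 and 36.5 ± 2.13 FPKM in the Dim libraries (limma adjusted p = 0.0234 and 0.0296). Flot1 was lost without Bright 2, Bright 3 or Dim 3 (limma adjusted p = 0.0603, 0.0719 and 0.0824), and Flot2 was kept only without Bright 3 (0.0252), with limma adjusted p = 0.0806, 0.0816, 0.0932, 0.0766 and 0.086 without Bright 1, Bright 2, Dim 1, Dim 2 and Dim 3. Vps4a, an ATPase that disassembles the ESCRT machinery, fell, at 12.9 ± 1.55 FPKM in Bright libraries and 22.1 ± 2.64 FPKM in Dim libraries (limma adjusted p = 0.00948). It shares exon sequence with Pdf on the opposite strand, which was also lower in Bright, at 4.07 ± 0.506 against 8.24 ± 1.08 FPKM in Dim (limma adjusted p = 0.00572). In the authors' deposited table of the pooled comparison, Sdc4 passed (q = 0.000921). Flot1 (q = 0.103), Flot2 (q = 0.104) and Vps4a (q = 0.122) did not. The lysosomal membrane gene Lamp1 measured 266 ± 14.1 FPKM in Bright libraries and 270.0 ± 12.0 FPKM in Dim libraries (log2 difference -0.02, 95% interval -0.36 to 0.32), and Sdcbp, which encodes syntenin, was at 104.6 ± 1.52 and 82.6 ± 11.5 FPKM (limma adjusted p = 0.127). The interval for Lamp1 does not reach the difference of -1.81 found for Cd63.

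**Figure D4:**
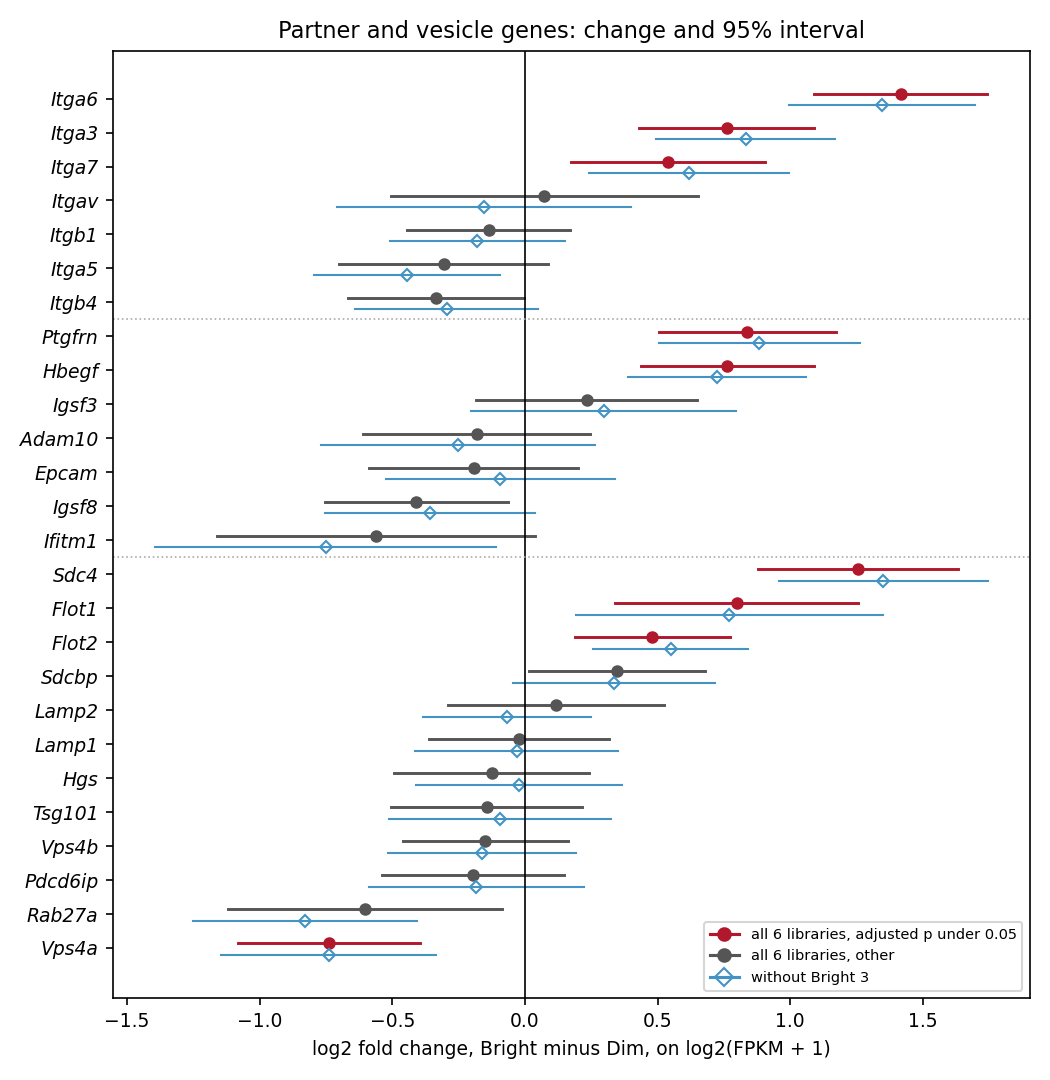
Log2 fold change, Bright minus Dim on log2(FPKM + 1), with 95% limma intervals for integrin partners (top), other membrane partners (middle) and vesicle genes (bottom); red marks adjusted p under 0.05 and open blue diamonds the fit without Bright 3. Itga6 and Sdc4 are the genes farthest to the right and Vps4a the only one in red to the left of 0.

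Profiles over the 6 libraries were compared by the root mean squared distance of centred log2(FPKM + 1) values. Only tested protein-coding genes whose symbol is not a model name (Gm, Rik, AC or RP) were ranked. Among these, the genes most like Tspan8 were Rab4a (distance 0.108), Rasl11a (0.132), Col18a1 (0.137), Ifnar2 (0.138) and Upf3b (0.141). Rab4a, a GTPase of endosomal recycling, measured 6.73, 10.6 and 11.7 FPKM in Bright 1, 2 and 3, against 0.552, 0.868 and 1.10 FPKM in Dim 1, 2 and 3. For Cd9 they were Msl3l2 (0.0504), Fam213b (0.0583), Crybb3 (0.0588), Fbxo2 (0.06) and Fthl17d (0.0608). Msl3l2 measured 12.7, 17.3 and 13.9 FPKM in Bright 1, 2 and 3, against 6.80, 8.43 and 9.39 FPKM in Dim 1, 2 and 3.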

How the data were processed

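RNA of 3 Bright and 3 Dim libraries was extracted with Trizol and primed with oligo d(T), per the labels' protocols. The authors deposited FPKM for each gene and library, and the submitters' processing notes list TopHat2 2.1.1, Cufflinks 2.2.1 and the mm9 build. They also deposited tables of a log2 ratio with a p-value and q-value for each gene, pooled and by library number, with no test settings given. Of 31584 gene identifiers found in GENCODE M21, 80.9% had the coordinates of GRCm38, so the deposited coordinates are read as GRCm38. The approximate depth, from the smallest FPKM steps in single-transcript genes, was 22300000 to 35400000 reads, and whole reads were not recovered, so no count test or counting interval is given.

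FPKM were taken as log2(FPKM + 1) without rescaling. Genes reaching 1 FPKM in 3 or more of the 6 libraries (13416) were tested with limma 3.58.1 (R 4.3.3), with trend and robust moderation and group as the only term, and called at a Benjamini-Hochberg adjusted p under 0.05. The procedure was also run on simulated data, with independent noise of the Dim spread in both groups. Those data held no outlying library such as Bright 3, so the run cannot speak for calls affected by it. All members, the members of the partner lists that were called, the 2 others of each list with the highest mean, and 5 nearest profiles for Tspan8 and Cd9 were named by rule. Exceptions are stated. The members and lists were chosen with earlier results of these data known. Motifs were chosen after the expression values were seen. Alternatives covered the pseudocount, filters, scaling, moderation, the replicate number as a block and each library left out.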

Additional observations from a re-analysis of the deposited data

How the results depend on the processing

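Tspan8, Cd82 and Cd63 kept their direction and their call under all 13 alternatives. Cd9 lost its call with no filter on low values (limma adjusted p = 0.0562) and in the fits without Bright 3 or Dim 1. Tspan13 was called under 5 of 13. With no filter, 2334 of the 25647 genes tested were called in either direction. In that setting 1 member and 0 other tetraspanins were called lower and 1 vesicle gene higher. Of the other tetraspanins, 4 were lower at an unadjusted p under 0.05, a level at which no share of all genes was computed. With a stricter filter, 983 genes and 1 membrane partner were called higher and 1 member and 1 other tetraspanin lower. Fewer genes were tested there (9578), of which 1944 were called in either direction. Upper quartile scaling called 1 member lower, with 3082 of 13416 genes called in either direction. Quantile normalization called 2 vesicle genes lower, with 3152 of 13416 genes called in either direction. When 1 library was left out, the counts called lower ranged over 849 to 1225 genes, 1 to 2 members, 0 to 3 other tetraspanins, 0 to 1 membrane partners and 1 to 2 vesicle genes, and 1 to 2 vesicle genes were called higher. The log2 difference of Cd81 ranged over -0.31 to 0.31, of Itgav over -0.15 to 0.28, of Lamp1 over -0.0538 to 0.0214 and of Cd53 over -0.76 to 0.16. Quantile normalization gave -0.0232 for Itgav and 0.0762 for Lamp1, and upper quartile scaling gave 0.0052 for Lamp1. The cause of these shifts was not tested.

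Deviations of same-numbered libraries from their group means correlated at 0.44 (number 1), 0.51 (number 2) and -0.19 (number 3). Bright 2 with Dim 1 gave -0.60 and Bright 1 with Dim 2 gave -0.55. Bright 3 gave at most 0.14, with Dim 1. Numbers 1 and 2 thus went together and number 3 did not. With 3 libraries per group these values cannot settle whether the libraries are paired, and the main fit did not pair them. With the replicate number as a block, 2607 genes were called higher and 2846 lower, with 2 other tetraspanins higher, 1 membrane partner lower and 2 vesicle genes lower. Of the 3016 genes called without the block, 2973 were called with it. Depth limits the low genes most, Tspan8 in Dim among the members.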
